A study of Mus musculus with 16 samples.

Results

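The ErbB receptors are receptor tyrosine kinases of the cell surface that are activated by growth factors of the EGF and neuregulin families. They were followed here through 10 genes, 4 receptors (Egfr, Erbb2, Erbb3 and Erbb4) and 6 ligands (Nrg1, Nrg2, Nrg3, Egf, Tgfa and Hbegf), on Affymetrix expression arrays of 3 kinds of mouse brain tumour and of normal brain. A gene was included where the array's annotation gave a probe set its symbol and no other, and 10 of 10 genes were found with 1 probe set each, out of 19936 genes tested. A further probe set that carries the names of Erbb2 and Sympk together was left out.

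Each group had 4 arrays. PDGF-p53 tumours (labelled PDGF+p53-/-) were made by a retrovirus that carried PDGF-B and Cre recombinase, given to mice with floxed p53. PDGF-p53-RBPJ tumours (PDGF+p53-/-RBPjk-/-) were made by the same virus in mice with floxed p53 and floxed RBPjk, the gene for the DNA-binding effector of Notch signalling. p53-RBPJ tumours (p53-/-RBPjk-/-) had no virus. Floxed p53 and RBPjk were deleted there in Hes5-expressing cells, which include neural stem cells, by the transgene Hes5::CreERT2. So at least the virus, the PDGF-B, the source of Cre and the cell of origin differ together between this group and the others. The control group was normal brain, wild type for all of these genes, and an age is not given in the sources used here for any group. Tumours were dissected by the GFP that Cre switched on once the mice showed symptoms, so a piece can hold host brain, and in such bulk tissue fewer cells of a type and less RNA per cell cannot be told apart. Replicates are numbered in the labels but are not said to come from separate animals, and p-values then measure the spread between these arrays, which may be technical.

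EGFR binds EGF, TGF-alpha and HB-EGF, whereas ErbB3 and ErbB4 bind neuregulins, and ErbB4 also binds HB-EGF. ErbB2 has no ligand of its own and acts as the partner of the other receptors, and ErbB3 has little kinase activity and signals through its partner. In brain, neuregulins come largely from neurons, ErbB4 is prominent on inhibitory interneurons, ErbB3 is found in cells of the oligodendrocyte lineage, and EGFR is found in neural progenitors and astrocytes and is often amplified in human glioblastoma.

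Expression values are on the log2 scale, where a difference of 1 is a doubling. Within groups, pairs of arrays had correlations of 0.968 to 0.984, the array medians lay between 5.97 and 6.06, and no 2 arrays held identical values. Rbpj, the deleted gene, lay between 7.55 and 7.88 on PDGF-p53-RBPJ arrays, 7.64 and 7.93 on p53-RBPJ arrays, 8.17 and 8.50 on PDGF-p53 arrays and 7.76 and 8.21 on normal brain arrays, so both RBPJ-deleted groups lay below every PDGF-p53 array and overlapped with normal brain; which exons the probe set covers is not given in the sources used here. Marker lists of cell types differed between tumours and normal brain. The mean of 7 neuron markers was 7.43 to 9.18 on PDGF-p53 arrays, 6.91 to 8.56 on PDGF-p53-RBPJ arrays and 6.39 to 7.91 on p53-RBPJ arrays, against 10.78 to 11.01 on normal brain arrays. That of 7 oligodendrocyte precursor markers was 9.51 to 9.87 on PDGF-p53, 9.53 to 9.64 on PDGF-p53-RBPJ and 8.92 to 9.57 on p53-RBPJ arrays, against 7.25 to 7.58 on normal brain arrays. Among arrays, PDGF-p53 replicate 3 had the highest neuron mean of the tumours (9.18). p53-RBPJ replicates 3 and 4 stood apart in 34 adjoining genes from Sox5 to Resf1, whose median difference from normal brain was 3.46 and 2.01 on these arrays and between 0.07 and 0.31 on every other tumour array. The ends of this stretch were picked after values were seen, so its height on these arrays is not an independent result. Results that rest on these arrays are given with and without them.

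Some of the 10 genes were higher and some lower in each tumour type. Erbb3, Erbb4 and Tgfa were higher and Nrg1 and Nrg3 were lower than in normal brain in all 3 tumour types. So 5 of 10 genes passed an adjusted p under 0.05 in each comparison, 3 of them higher and 2 lower, beside 31.1% of all genes tested for PDGF-p53, 33.6% for PDGF-p53-RBPJ and 36.8% for p53-RBPJ tumours. No overlap between tumour and normal arrays was seen for 6 of the 10 genes for PDGF-p53 (30.0% of all genes), 6 for PDGF-p53-RBPJ (34.5%) and 3 for p53-RBPJ tumours (34.4%). The counts were not tested against these shares, and 10 genes are too few to read them as a trait of the family. The median difference of the 10 genes from normal brain was 0.06 for PDGF-p53 (-0.04 over all genes), 0.07 for PDGF-p53-RBPJ (-0.03) and 0.01 for p53-RBPJ tumours (-0.02). The 3 comparisons share the normal brain arrays, so they are not independent of each other.

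**Figure D1:**
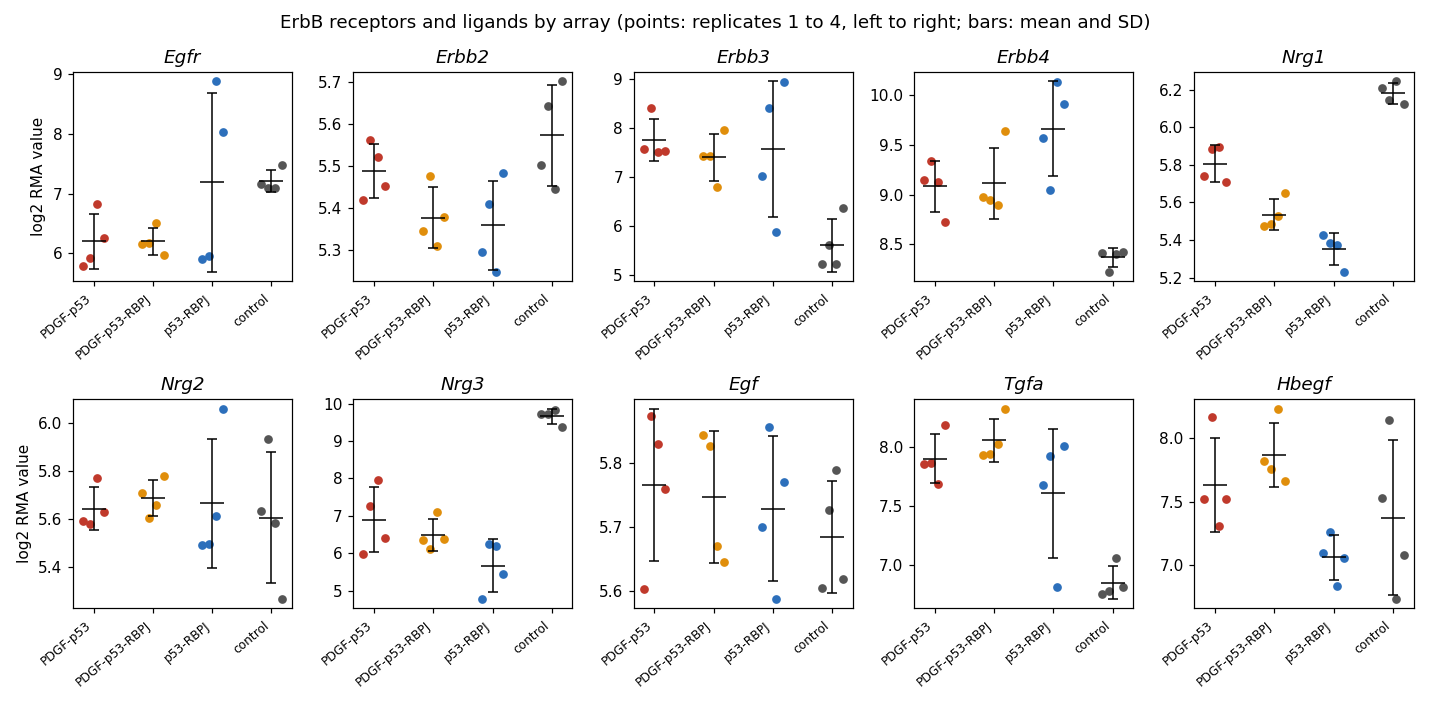
Log2 expression value (vertical axis, a separate scale for each gene) of the 10 genes on each array, with 1 point for each of replicates 1 to 4 and bars for the mean and SD of each group (n = 4). All tumour arrays lie above all normal brain arrays for Erbb4 and below them for Nrg1 and Nrg3, and the p53-RBPJ arrays of Egfr split into a pair near 5.9 and a pair above 8.

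The promoters of the receptors and ligands whose values carry the results below are shown for Egfr, Erbb4 and Tgfa, because Egfr split a tumour type and Erbb4 and Tgfa rose in all of them. Each run is the 250 bases before the RefSeq start of the gene on its own strand in GRCm38.p6, in lower case, with letters in capitals where one of the searched motifs matched: the RBPJ core TGGGAA, the SOX motif AACAAT and the GC box GGGCGG, on both strands. Egfr is at chr11:16751953-16752202 on the plus strand, Erbb4 at chr1:69108060-69108309 on the minus strand and Tgfa at chr6:86194972-86195221 on the plus strand.
Egfr: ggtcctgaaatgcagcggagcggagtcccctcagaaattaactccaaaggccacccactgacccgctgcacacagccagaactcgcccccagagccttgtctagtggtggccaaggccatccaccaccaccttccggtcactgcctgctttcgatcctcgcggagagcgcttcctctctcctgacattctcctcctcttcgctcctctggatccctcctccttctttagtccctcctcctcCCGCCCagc
Erbb4: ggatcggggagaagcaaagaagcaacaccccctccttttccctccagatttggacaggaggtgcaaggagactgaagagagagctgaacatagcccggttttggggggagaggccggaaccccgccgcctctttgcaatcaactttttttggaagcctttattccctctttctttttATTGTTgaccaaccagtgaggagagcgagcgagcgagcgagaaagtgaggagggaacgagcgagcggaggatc
Tgfa: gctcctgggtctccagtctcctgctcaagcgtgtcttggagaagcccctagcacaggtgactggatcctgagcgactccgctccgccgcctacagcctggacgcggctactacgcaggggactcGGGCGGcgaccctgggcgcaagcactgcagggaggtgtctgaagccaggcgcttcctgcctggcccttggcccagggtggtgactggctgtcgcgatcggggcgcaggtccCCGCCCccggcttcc
The capitals are 1 GC box in Egfr, 1 SOX motif in Erbb4 and 2 GC boxes in Tgfa. Over 7 such windows of 6 of the 10 genes, no window held the letters of the RBPJ core, 1 held those of the SOX motif and 2 held those of the GC box, beside 21.6%, 9.42% and 32.7% of 32851 promoter windows of this length. So few windows cannot be told apart from these shares. Windows of Erbb3, Nrg1, Nrg2 and Hbegf were not searched. The motifs were chosen with the sequences known, and a match is a description of letters and not a binding site.

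Erbb3, the receptor with little kinase activity, was higher in tumours. It had 7.56, 8.40, 7.51 and 7.53 on the PDGF-p53 arrays, 7.42, 7.44, 6.79 and 7.96 on the PDGF-p53-RBPJ arrays and 7.02, 8.41, 5.88 and 8.94 on the p53-RBPJ arrays, against 5.23, 5.61, 5.24 and 6.37 on the normal brain arrays. Every array of both PDGF tumour types lay above every normal array, while p53-RBPJ replicate 3 lay within the normal range. Erbb3 was higher by 2.14 ± 0.48 for PDGF-p53 (log2 difference ± SE, 4.40-fold, adjusted p = 0.00226), by 1.79 ± 0.48 for PDGF-p53-RBPJ (3.46-fold, adjusted p = 0.00745) and by 1.95 ± 0.48 for p53-RBPJ tumours (3.87-fold, adjusted p = 0.00356). The exact two-sided permutation test gave p = 0.0286 for both PDGF tumour types, the smallest that 4 against 4 arrays allow, and 0.0571 for p53-RBPJ tumours. Without p53-RBPJ replicate 3 the last difference was 2.51 (adjusted p = 7.29e-05). Replicate 3 also had the lowest mean of the oligodendrocyte precursor markers among tumours (8.92), and all 7 of these markers, Pdgfra, Cspg4, Sox10, Olig1, Olig2, Gpr17 and Ptprz1, were higher than normal brain in each tumour type; their part in the Erbb3 result was not tested. The mature oligodendrocyte list, by contrast, had 6 of 7 measured markers lower for PDGF-p53, 5 for PDGF-p53-RBPJ and 6 for p53-RBPJ tumours, and none higher.

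Erbb4, the neuregulin receptor of interneurons, was higher in tumours as well. It had 9.15, 9.34, 9.13 and 8.73 on the PDGF-p53 arrays, 8.98, 8.94, 8.89 and 9.64 on the PDGF-p53-RBPJ arrays and 9.56, 9.04, 10.13 and 9.91 on the p53-RBPJ arrays, against 8.41, 8.23, 8.41 and 8.43 on the normal brain arrays. All 12 tumour arrays lay above all normal arrays, and the normal arrays were close together. The differences were 0.72 ± 0.21 for PDGF-p53 (1.64-fold, adjusted p = 0.0137), 0.74 ± 0.21 for PDGF-p53-RBPJ (1.67-fold, adjusted p = 0.00984) and 1.29 ± 0.21 for p53-RBPJ tumours (2.45-fold, adjusted p = 7.63e-05). Without p53-RBPJ replicates 3 and 4, the highest of that group, the last value was 0.94 (adjusted p = 0.00344). The interneuron list (Gad1, Gad2, Slc32a1, Pvalb, Sst, Vip, Lhx6) went the other way: 6 of 7 markers were lower and none higher in each tumour type, and its mean was 6.03 to 7.35 in PDGF-p53, 6.37 to 7.11 in PDGF-p53-RBPJ and 5.86 to 6.64 in p53-RBPJ tumours, against 8.56 to 8.94 in normal brain.

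Egfr, the receptor for EGF and TGF-alpha, did not pass in any comparison and differed within 1 tumour type. It had 5.79, 5.92, 6.83 and 6.26 on the PDGF-p53 arrays, 6.16, 6.17, 6.51 and 5.97 on the PDGF-p53-RBPJ arrays and 5.91, 5.96, 8.87 and 8.02 on the p53-RBPJ arrays, against 7.16, 7.09, 7.09 and 7.48 on the normal brain arrays. All arrays of the 2 PDGF tumour types lay below all normal arrays, but in p53-RBPJ tumours replicates 1 and 2 lay below and replicates 3 and 4 above all normal arrays. The group mean of p53-RBPJ tumours, 7.19 ± 1.49 (SD, n = 4), therefore stands for no array of the group, and is beside 7.21 ± 0.18 in normal brain. The differences were -1.01 ± 0.48 in PDGF-p53 tumours (95% interval -2.01 to -0.01, adjusted p = 0.124, exact permutation p = 0.0286), -1.01 ± 0.48 in PDGF-p53-RBPJ tumours (adjusted p = 0.120, exact permutation p = 0.0286) and -0.02 ± 0.48 for p53-RBPJ tumours (adjusted p = 0.983).

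The spread of p53-RBPJ replicates entered the error of every Egfr comparison, because 1 fit was used for all groups. Without p53-RBPJ replicates 3 and 4, an alternative chosen after the values were seen, the Egfr differences from normal brain were -1.01 for PDGF-p53 (adjusted p = 0.000702), -1.01 for PDGF-p53-RBPJ (adjusted p = 0.000637) and -1.28 for p53-RBPJ tumours (adjusted p = 0.000544). Without replicate 3 alone, both PDGF tumour types passed (adjusted p = 0.0363 in PDGF-p53 and 0.0344 in PDGF-p53-RBPJ), and p53-RBPJ tumours did not (-0.58, adjusted p = 0.273). With only the 2 groups of each comparison in the fit, adjusted p was 0.00337 in PDGF-p53 and 0.000143 in PDGF-p53-RBPJ tumours. The astrocyte list, cells in which Egfr is found, had 6 of 8 markers lower and none higher in each tumour type, with a mean of 7.01 to 7.49 on all p53-RBPJ arrays against 9.18 to 9.40 on normal arrays. Of the p53-RBPJ arrays with high Egfr, replicate 3 had the highest astrocyte mean of the group (7.49) and replicate 4 the lowest (7.01). On PDGF-p53 arrays the astrocyte means (7.39, 7.55, 8.76 and 7.93) had the same order as Egfr. In PDGF-p53-RBPJ tumours replicate 4 had the lowest Egfr and the highest astrocyte mean (8.08). The part of these markers in the Egfr values was not tested.

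The arrays with high Egfr were the same as those with the raised genes from Sox5 to Resf1, a stretch picked after values were seen. Egfr was 1.66 and 0.81 above the normal mean on p53-RBPJ replicates 3 and 4, where the median of those 34 genes was 3.46 and 2.01 above it, and was at -1.30 and -1.25 on replicates 1 and 2, where the median was 0.22 and 0.27. The genes next to Egfr did not share this split. Over the 5 nearest measured protein-coding genes on each side the median difference from normal brain was -0.40, -0.60, -0.26 and -0.40 on replicates 1 to 4, and 1 of 10, Plek, was higher on both replicates 3 and 4 than on replicates 1 and 2. The same held for 1 of 10 neighbours of Erbb2, 1 of 10 of Erbb3 and 2 of 10 of Erbb4. The share of all genes with this order was not counted, so these counts are a description only.

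**Figure D2:**
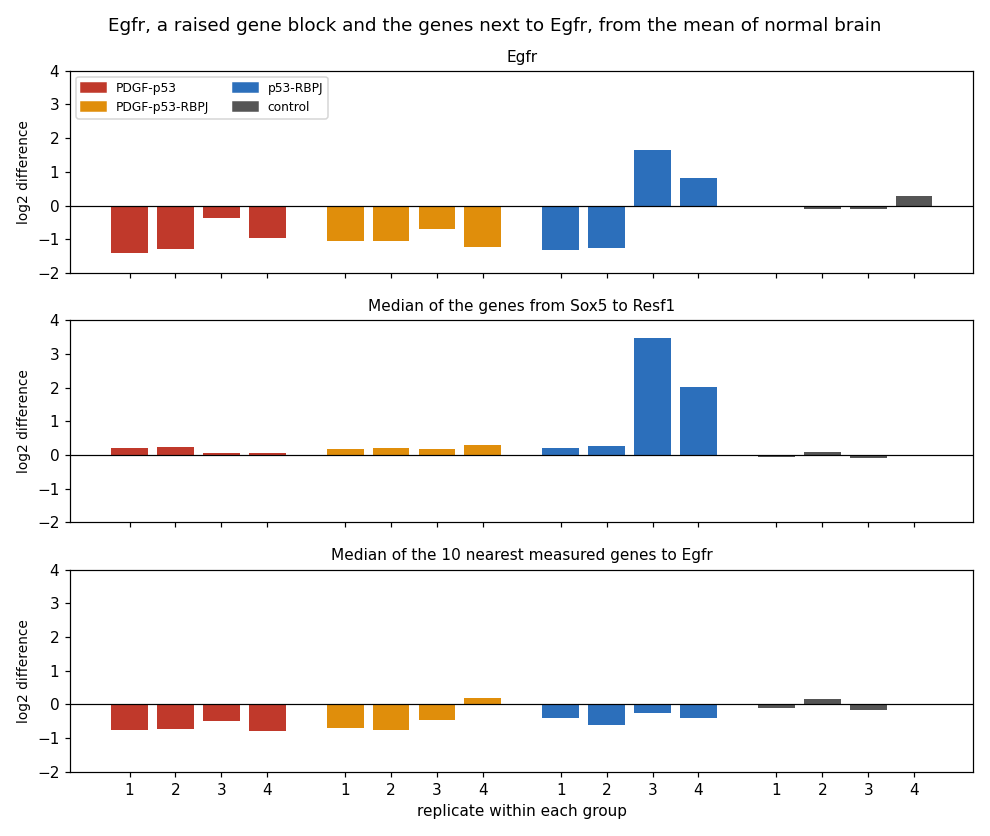
Log2 difference from the mean of normal brain (vertical axis) on each array (horizontal axis, replicates 1 to 4 of each group) for Egfr, for the median of 34 genes from Sox5 to Resf1 and for the median of the 10 measured genes nearest to Egfr. On p53-RBPJ replicates 3 and 4 Egfr was at 1.66 and 0.81 and the Sox5 to Resf1 median at 3.46 and 2.01, while the neighbours of Egfr had medians of -0.26 and -0.40.

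Erbb2, the receptor without a ligand, differed little on this array. It lay between 5.42 and 5.56 on PDGF-p53, 5.31 and 5.48 on PDGF-p53-RBPJ and 5.25 and 5.48 on p53-RBPJ arrays, against 5.44 and 5.70 on normal brain arrays. All of these values, from 1 dim probe set, were below the lowest array median (5.97), so small differences do not show unchanged expression. All 3 tumour groups overlapped with normal brain, and no difference passed: -0.08 ± 0.10 for PDGF-p53 (adjusted p = 0.593), -0.19 ± 0.10 for PDGF-p53-RBPJ (adjusted p = 0.155) and -0.21 ± 0.10 for p53-RBPJ tumours (adjusted p = 0.110). The 95% intervals were -0.29 to 0.13 for PDGF-p53, -0.41 to 0.02 for PDGF-p53-RBPJ and -0.42 to -0.0023 for p53-RBPJ tumours. With housekeeping centring the signs turned, to 0.10, 0.02 and 0.09 for the same groups.

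**Figure D3:**
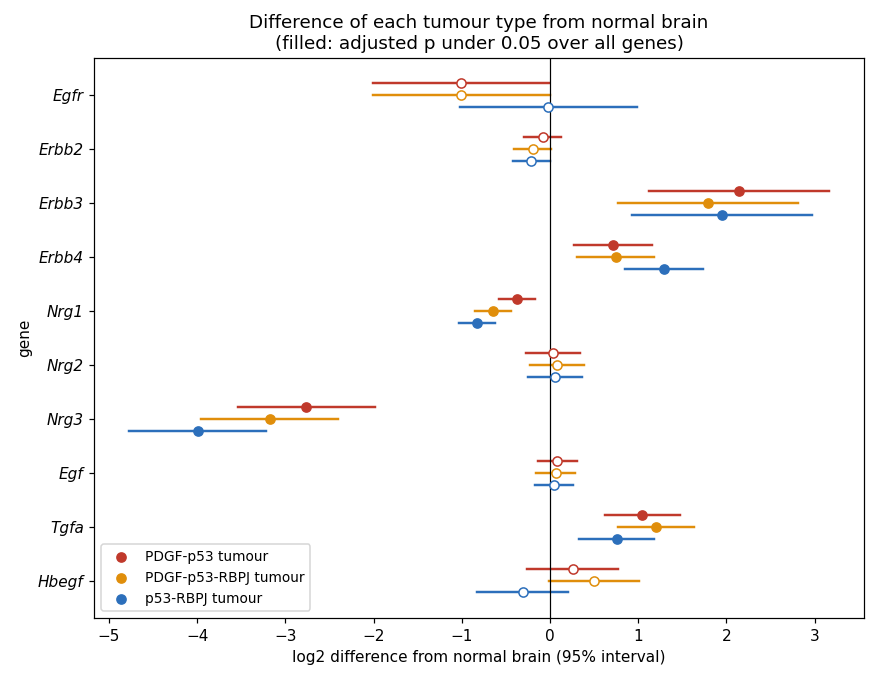
Log2 difference of each tumour type from normal brain (horizontal axis, with the 95% interval of the fit) for the 10 genes, filled where the adjusted p over all genes was under 0.05. Erbb3, Erbb4 and Tgfa lie right of 0 and Nrg1 and Nrg3 left of it in all 3 tumour types, and the intervals of Egfr are among the widest.

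Among the ligands, Nrg3, a neuregulin that binds ErbB4 and is made by neurons, showed the largest difference of the 10 genes. It had 5.98, 7.25, 7.95 and 6.41 on the PDGF-p53 arrays, 6.34, 6.11, 7.10 and 6.38 on the PDGF-p53-RBPJ arrays and 4.78, 6.25, 6.21 and 5.44 on the p53-RBPJ arrays, against 9.72, 9.73, 9.83 and 9.37 on the normal brain arrays. No tumour array came within 1 log2 unit of the lowest normal array. Nrg3 was lower by 6.79-fold for PDGF-p53 (log2 difference -2.76 ± 0.37, adjusted p = 1.56e-05), by 9.06-fold for PDGF-p53-RBPJ (-3.18 ± 0.37, adjusted p = 2.93e-06) and by 15.9-fold for p53-RBPJ tumours (-3.99 ± 0.37, adjusted p = 1.55e-07). All 7 measured neuron markers fell as well, with median differences of -3.04 for PDGF-p53, -3.26 for PDGF-p53-RBPJ and -3.84 for p53-RBPJ tumours. PDGF-p53 replicate 3 had the highest Nrg3 (7.95) and the highest neuron mean (9.18) of the tumour arrays. Within p53-RBPJ tumours the order differed: replicate 2 had the highest Nrg3 (6.25) and the lowest neuron mean (6.39). The part of the neuron markers in the Nrg3 result was not tested.

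Nrg1, the neuregulin that binds ErbB3 and ErbB4, differed less in size, but its arrays lay close together within each group. It had 5.74, 5.88, 5.90 and 5.71 on the PDGF-p53 arrays, 5.48, 5.48, 5.53 and 5.65 on the PDGF-p53-RBPJ arrays and 5.43, 5.39, 5.37 and 5.23 on the p53-RBPJ arrays, against 6.21, 6.14, 6.24 and 6.12 on the normal brain arrays. The probe set is dim: all tumour values lay below the lowest array median (5.97) and the normal values just above the highest (6.06). The 4 groups did not overlap with each other, with normal brain highest, PDGF-p53 next, PDGF-p53-RBPJ after it and p53-RBPJ lowest, though neighbouring tumour types in this order did not pass over all genes. The neuron markers had median differences from normal brain in the same order (-3.04, -3.26 and -3.84), though their means overlapped between tumour types. Their part in the Nrg1 result was not tested. Nrg1 was lower than normal brain by 1.30-fold for PDGF-p53 (log2 difference -0.37 ± 0.10, adjusted p = 0.00604), by 1.56-fold for PDGF-p53-RBPJ (-0.64 ± 0.10, adjusted p = 4.39e-05) and by 1.77-fold for p53-RBPJ tumours (-0.83 ± 0.10, adjusted p = 2.21e-06). With each array centred on housekeeping genes, the first of these was -0.18 (adjusted p = 0.257). Nrg2, a related neuregulin, overlapped between all groups, with differences from normal brain of 0.04 for PDGF-p53 (adjusted p = 0.884), 0.08 for PDGF-p53-RBPJ (0.721) and 0.06 for p53-RBPJ tumours (0.793). Its values lay between 5.27 and 6.06, near or below the array medians, so they do not show unchanged expression.

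Tgfa, a ligand of EGFR, was higher in tumours. It had 7.86, 7.87, 7.69 and 8.19 on the PDGF-p53 arrays, 7.93, 7.94, 8.02 and 8.33 on the PDGF-p53-RBPJ arrays and 7.68, 7.92, 6.82 and 8.01 on the p53-RBPJ arrays, against 6.76, 6.78, 7.06 and 6.82 on the normal brain arrays. All tumour arrays but p53-RBPJ replicate 3 lay above the normal range, and that replicate, the one with the highest Egfr, lay within it. Replicate 4, which also had high Egfr, had the highest Tgfa of the group (8.01). Replicate 3 also had the lowest precursor mean among tumours (8.92) and the highest neuron mean of its group (7.91). Their part in the Tgfa value was not tested. Tgfa rose by 1.05 ± 0.20 for PDGF-p53 (2.07-fold, adjusted p = 0.000613), by 1.203 ± 0.203 for PDGF-p53-RBPJ (2.30-fold, adjusted p = 0.000148) and by 0.75 ± 0.20 for p53-RBPJ tumours (1.69-fold, adjusted p = 0.00648, exact permutation p = 0.0571). Without replicate 3 the last value was 1.02 (adjusted p = 2.93e-05).

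Hbegf, a ligand of both EGFR and ErbB4, did not pass in any comparison. It had 7.52, 8.17, 7.31 and 7.52 on the PDGF-p53 arrays, 7.82, 7.76, 8.24 and 7.66 on the PDGF-p53-RBPJ arrays and 7.10, 7.26, 6.83 and 7.06 on the p53-RBPJ arrays, against 7.53, 8.15, 6.73 and 7.08 on the normal brain arrays. The normal arrays were widely spread and overlapped with all tumours, while all p53-RBPJ arrays lay below all arrays of both PDGF tumour types. The differences from normal brain were 0.26 for PDGF-p53 (adjusted p = 0.486), 0.50 for PDGF-p53-RBPJ (0.136) and -0.31 for p53-RBPJ tumours (0.362), and without normal replicate 2, the highest, the PDGF-p53-RBPJ value was 0.76 (adjusted p = 0.0117). Egf, the ligand that names EGFR, lay between 5.59 and 5.87 on all tumour arrays and 5.61 and 5.79 on normal arrays, and its differences did not pass, at 0.08 for PDGF-p53 (adjusted p = 0.623), 0.06 for PDGF-p53-RBPJ (0.712) and 0.04 for p53-RBPJ tumours (0.791). All Egf values were below the lowest array median (5.97). Of 5 other ErbB ligands (Areg, Ereg, Btc, Epgn and Nrg4) 4 were measured, and none passed in any of the 3 comparisons with normal brain. Their mean was 4.57 to 5.09 over the arrays, also below the array medians, so neither they nor Egf show unchanged expression.

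**Figure D4:**
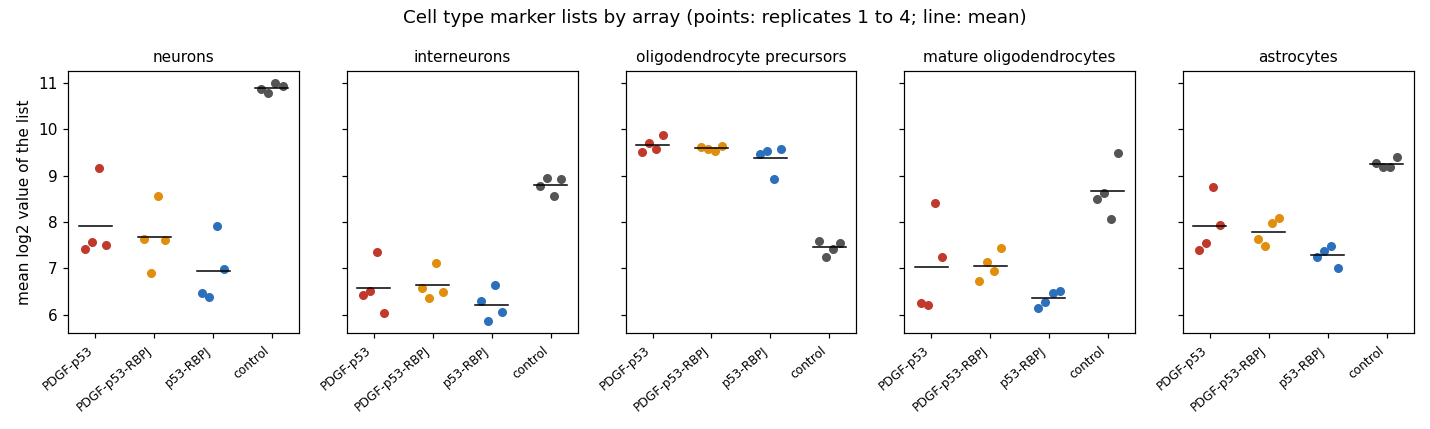
Mean log2 value of 5 cell type marker lists (vertical axis) on each array, with 1 point for each of replicates 1 to 4 and a line at the group mean. Neuron, interneuron, mature oligodendrocyte and astrocyte means are lower on nearly all tumour arrays and oligodendrocyte precursor means higher on all of them, with PDGF-p53 replicate 3 at 9.18 for neurons and p53-RBPJ replicate 3 at 8.92 for precursors.

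The deletion of RBPJ within PDGF-induced tumours was asked by PDGF-p53-RBPJ against PDGF-p53 tumours. None of the 10 genes passed, beside 0.0201% of all genes (4 genes, and 1033 genes at an unadjusted p under 0.05). The arrays did not overlap for 1 of the 10 genes, Nrg1, beside 3.18% of all genes. Nrg1 was at -0.27 in PDGF-p53-RBPJ relative to PDGF-p53 tumours (95% interval -0.47 to -0.07, adjusted p = 0.799, exact permutation p = 0.0286), which did not pass over all genes. For the receptors the intervals were -0.999 to 1.003 for Egfr, -0.32 to 0.10 for Erbb2, -1.37 to 0.67 for Erbb3 and -0.41 to 0.47 for Erbb4. For the ligands they were -1.19 to 0.36 for Nrg3, -0.27 to 0.58 for Tgfa, -0.28 to 0.75 for Hbegf, -0.26 to 0.35 for Nrg2 and -0.24 to 0.20 for Egf. The intervals of Egfr, Erbb3 and Nrg3 reach a 1 log2 unit difference in at least one direction, so this fit does not decide on differences of that size. Those of Erbb2, Erbb4, Nrg1, Nrg2, Egf, Tgfa and Hbegf do not reach it in either direction. The error of the fit also holds the spread of p53-RBPJ arrays, with an SD of 1.49 for Egfr and 1.38 for Erbb3. For Egfr the SD was only 0.46 in PDGF-p53 and 0.22 in PDGF-p53-RBPJ tumours, so its interval is wider than the arrays compared would give alone.

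p53-RBPJ tumours were also set against both PDGF tumour types. Against PDGF-p53-RBPJ tumours none of the 10 genes passed, beside 3.27% of all genes, and the arrays did not overlap for 2 of the 10 (Nrg1 and Hbegf), beside 9.69% of all genes. Hbegf was at -0.81 ± 0.24 (adjusted p = 0.0829, exact permutation p = 0.0286), which passed with only the 2 groups in the fit (adjusted p = 0.0265). Microglia and macrophage markers had a mean of 6.94 to 7.87 on the p53-RBPJ arrays and 7.52 to 7.64 on the PDGF-p53-RBPJ arrays. None of these 7 markers passed, and they went both ways: the median difference was -0.47, with Lyz2 at 0.95 and Cd68 at 0.02. Their part in the Hbegf value was not tested. The other values were 0.99 for Egfr (adjusted p = 0.312), 0.55 for Erbb4 (0.177), -0.81 for Nrg3 (0.276), -0.45 for Tgfa (0.276) and -0.18 for Nrg1 (0.371). Without p53-RBPJ replicates 3 and 4, Egfr turned to -0.27 and Erbb4 was at 0.19, and neither passed.

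Against PDGF-p53 tumours, 1 of the 10 genes passed, beside 5.54% of all genes, and the arrays did not overlap for 2 (Nrg1 and Hbegf), beside 9.75% of all genes. This gene was Nrg1, which was 1.37-fold lower in p53-RBPJ tumours (log2 difference -0.45 ± 0.10, adjusted p = 0.0117, exact permutation p = 0.0286). Without p53-RBPJ replicates 3 and 4 it was -0.40 (adjusted p = 0.116), with housekeeping centring -0.34 (adjusted p = 0.0997) and with only these groups in the fit adjusted p was 0.0705. The 7 neuron markers had a median difference of -1.13 in this comparison, and none passed. Their part in the Nrg1 result was not tested. Nrg3 was at -1.23 ± 0.37 (adjusted p = 0.0601), Hbegf at -0.57 (0.204), Erbb4 at 0.58 (0.121) and Egfr at 0.99 (0.268). With the replicate numbers as a block in the limma fit, Nrg3 passed (adjusted p = 0.0144). Without p53-RBPJ replicates 3 and 4, Egfr turned to -0.27 and Erbb4 was at 0.22, and neither passed. At least the virus, PDGF-B, the source of Cre, RBPJ and the cell of origin differ between these groups and cannot be told apart.

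The genes with the most similar pattern were found for the members that passed, by the smallest root mean square difference over the 16 arrays after subtraction of each gene's mean. For Erbb3 they were Plxnb3 (0.48), Myt1 (0.52) and Nmi (0.53), and for Erbb4 Srek1 (0.23), Fcho2 (0.23) and Zup1 (0.24). For Nrg1 they were Serinc3 (0.087), Nckap1 (0.11) and Rab6a (0.12), for Nrg3 Hpcal4 (0.32), Gabrb1 (0.37) and Camk4 (0.39), and for Tgfa Farp1 (0.17), Vxn (0.21) and Galnt10 (0.22). The distances grow with the spread of the gene itself, so they rank genes for 1 member and not between members. Egfr did not pass and was added after its values were seen: its nearest genes were Dennd5b (0.34) and Ccdc91 (0.42), both within the stretch from Sox5 to Resf1, and Ddit4l (0.46), which is not. That stretch was itself picked with the values of these arrays seen.

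Several of the enzymes that release ligands from the cell surface were higher in tumours. Of 9 such proteases and rhomboid proteins, 6 were higher and 1 lower in PDGF-p53, 6 higher and none lower in PDGF-p53-RBPJ, and 4 higher and 1 lower in p53-RBPJ tumours. Of all genes, 31.1% were called in either direction for PDGF-p53, 33.6% for PDGF-p53-RBPJ and 36.8% for p53-RBPJ tumours. The list's median difference was 0.56 for PDGF-p53, 0.55 for PDGF-p53-RBPJ and 0.38 for p53-RBPJ tumours. Adam17, the main sheddase of TGF-alpha and HB-EGF, had 8.36 to 8.87 on PDGF-p53, 8.30 to 8.60 on PDGF-p53-RBPJ and 7.97 to 8.77 on p53-RBPJ arrays, against 6.81 to 7.39 on normal brain arrays, so that all tumour arrays lay above all normal arrays. Adam17 rose by 1.46 for PDGF-p53 (adjusted p = 3.87e-06), 1.34 for PDGF-p53-RBPJ (7.86e-06) and 1.31 for p53-RBPJ tumours (7.43e-06). Adam12, a metalloprotease that can cleave HB-EGF, rose by 2.83 for PDGF-p53, 2.54 for PDGF-p53-RBPJ and 2.05 for p53-RBPJ tumours, and Adam9, a relative of it, by 1.42, 1.18 and 0.55 for the same groups. The lowest p53-RBPJ array of Adam9 (7.92) lay below the highest normal array (8.12). Rhbdf1, an escort of ADAM17 to the cell surface, rose by 0.91 for PDGF-p53 (adjusted p = 0.000522) and 0.85 for PDGF-p53-RBPJ (0.000856), and was at 0.28 for p53-RBPJ tumours (0.226).

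Bace1, a protease that cleaves NRG1, went the other way. It had 8.47 to 8.74 on PDGF-p53, 8.49 to 8.75 on PDGF-p53-RBPJ and 7.62 to 8.06 on p53-RBPJ arrays, against 8.80 to 9.02 on normal brain arrays. It was lower for PDGF-p53 (-0.34, adjusted p = 0.0354) and for p53-RBPJ tumours (-1.02, adjusted p = 1.73e-06), and was at -0.27 for PDGF-p53-RBPJ tumours (adjusted p = 0.0891). Between tumours, p53-RBPJ was lower than PDGF-p53-RBPJ (-0.75, adjusted p = 0.00273) and than PDGF-p53 (-0.69, adjusted p = 0.00284). Adam9 differed likewise, at -0.63 against PDGF-p53-RBPJ (adjusted p = 0.0462) and -0.87 against PDGF-p53 tumours (adjusted p = 0.00612), and Rhbdf1 was lower than in PDGF-p53 tumours (-0.62, adjusted p = 0.0427).

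**Figure D5:**
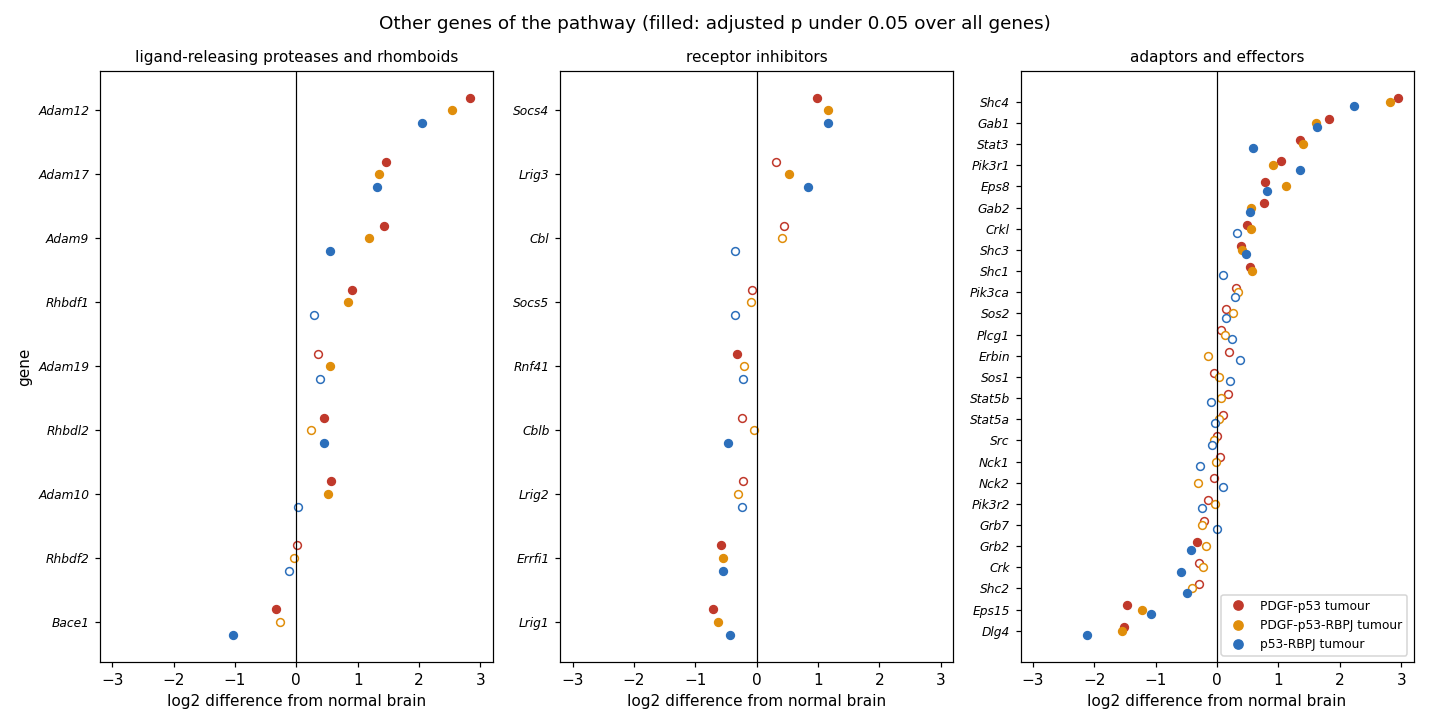
Log2 difference from normal brain (horizontal axis) of 9 ligand-releasing proteases and rhomboid proteins, 9 receptor inhibitors and 26 adaptors and effectors in the 3 tumour types, filled where the adjusted p over all genes was under 0.05. Shc4, Adam12 and Gab1 lie furthest right and Dlg4 furthest left in all 3 tumour types.

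The inhibitors of the receptors held calls in both directions. Of 9 genes, 1 was higher and 3 were lower in PDGF-p53, 2 higher and 2 lower in PDGF-p53-RBPJ, and 2 higher and 3 lower in p53-RBPJ tumours, beside 31.1%, 33.6% and 36.8% of all genes called for the same groups. Socs4, which promotes degradation of EGFR, rose by 0.98 for PDGF-p53 (adjusted p = 4.31e-05), 1.17 for PDGF-p53-RBPJ (5.67e-06) and 1.15 for p53-RBPJ tumours (4.64e-06). Lrig1, which promotes the loss of ErbB receptors from the surface, was lower, at -0.71 for PDGF-p53 (adjusted p = 0.00207), -0.63 for PDGF-p53-RBPJ (0.00424) and -0.44 for p53-RBPJ tumours (0.0350). The p53-RBPJ arrays of Lrig1 reached 6.59 and overlapped with normal brain, where the lowest array had 6.31. Errfi1, which blocks the kinase of EGFR, was lower as well, at -0.58 for PDGF-p53 (adjusted p = 0.0380), -0.54 for PDGF-p53-RBPJ (0.0494) and -0.55 for p53-RBPJ tumours (0.0422). The Errfi1 calls lay close to the threshold, and tumour and normal arrays overlapped. Cbl, a ubiquitin ligase of EGFR, was lower in p53-RBPJ than in PDGF-p53-RBPJ tumours (-0.76, adjusted p = 0.0217) and than in PDGF-p53 tumours (-0.80, adjusted p = 0.0110).

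Of 26 adaptors and effectors, 9 were higher and 3 lower in PDGF-p53, 9 higher and 2 lower in PDGF-p53-RBPJ, and 7 higher and 5 lower in p53-RBPJ tumours, where 31.1%, 33.6% and 36.8% of all genes were called in either direction. Their median difference was 0.13 for PDGF-p53, 0.04 for PDGF-p53-RBPJ and 0.12 for p53-RBPJ tumours. Shc4, an adaptor of the Shc family, rose by 2.95 for PDGF-p53 (adjusted p = 4.80e-07), 2.82 for PDGF-p53-RBPJ (6.26e-07) and 2.23 for p53-RBPJ tumours (5.45e-06). Gab1, the docking protein that joins EGFR to PI3-kinase, rose by 1.83 for PDGF-p53 (adjusted p = 8.56e-07), 1.62 for PDGF-p53-RBPJ (2.55e-06) and 1.62 for p53-RBPJ tumours (1.71e-06). Dlg4, the synaptic scaffold PSD-95 that binds ErbB4, was lower, at -1.52 for PDGF-p53 (adjusted p = 1.69e-05), -1.55 for PDGF-p53-RBPJ (1.13e-05) and -2.12 for p53-RBPJ tumours (2.45e-07), as were all 7 neuron markers; their part in it was not tested. Stat3, a transcription factor downstream of EGFR, rose by 1.35 for PDGF-p53 (adjusted p = 5.46e-05), 1.40 for PDGF-p53-RBPJ (3.03e-05) and 0.59 for p53-RBPJ tumours (0.0290). In p53-RBPJ tumours Stat3 overlapped with normal brain, with a lowest array of 8.10 against a highest normal array of 8.41. Between tumours it was lower in p53-RBPJ than in PDGF-p53-RBPJ tumours (-0.81, adjusted p = 0.0352) and than in PDGF-p53 tumours (-0.76, adjusted p = 0.0356).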

How the data were processed

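The deposited table holds log2 expression values of 35556 probe sets on 16 arrays, made by the authors with RMA in oligo, per the submitters' processing notes; neither versions nor filters are named there. RMA gives all arrays the same distribution and hides changes in total RNA, and whether a further scaling was applied is unknown. Names came from the array's annotation: 21789 probe sets had 1 symbol, 1621 several and 12146 none here. Where a gene had several probe sets, the one with the highest mean was used.

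All 19936 genes entered 1 limma 3.58.1 fit in R 4.3.3 (lmFit and eBayes, 12 residual and 5.33 prior degrees of freedom), tested on simulated data first. Differences were two-sided, adjusted by Benjamini-Hochberg over all genes and called at 0.05; the median SE was 0.15, and precision is limited by the number of arrays. Members were also compared by exact two-sided permutation tests of 4 against 4 arrays. The comparisons follow the genotypes. Named genes were the 10 members, in each pathway list up to 3 genes called in all 3 comparisons with normal brain, and for each called member the 3 genes of smallest distance; other named genes were picked after their values were seen. The members and lists were chosen with earlier results of these data known. Alternatives covered probe sets, dim genes, scaling, variance model, array weights, samples, a replicate block and each array left out. Same-numbered arrays of different groups had correlations of deviations from -0.12 to 0.18 (median 0.03), with 7 of 24 over 0.1, so the numbers were not used to pair arrays in the main fit. The labels name no batch, and these correlations do not settle whether same-numbered arrays share one. Promoters are RefSeq sequences of GRCm38.p6; coordinates of probe sets are not given because the build of the annotation is not named. Python 3.11.15 with numpy 2.4.6, pandas 2.3.3, scipy 1.17.1 and matplotlib 3.10.9 made tables and figures.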

Additional observations from a re-analysis of the deposited data

Results flagged for a closer look

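Within groups, 40 sets of 4 arrays were checked for a value far from the others, and 3 stood out. Chance flags about 1 in 20 groups. Erbb3 was 8.40 on PDGF-p53 replicate 2, with a median of 7.53 on the other 3 arrays of the group. Erbb4 was 9.64 on PDGF-p53-RBPJ replicate 4, with a median of 8.94 on the others, and 8.23 on normal brain replicate 2, with a median of 8.41 on the others. The pairs of high and low Egfr arrays in p53-RBPJ tumours were not picked out by this check, since each array has a near neighbour. The effects of 2 tumour types against normal brain differed for Nrg1: p53-RBPJ minus PDGF-p53 was -0.45 (adjusted p = 0.0117 in the limma fit), lower on 4 of 4 arrays.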

How the results depend on the processing

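Of 16 calls among the members, 14 kept their direction and their side of the threshold in all 26 alternatives. The exceptions were Nrg1 in PDGF-p53 tumours against normal brain (housekeeping centring) and Nrg1 in p53-RBPJ against PDGF-p53 tumours (housekeeping centring, only the 2 groups, and without p53-RBPJ replicates 3 and 4). The number of members called in p53-RBPJ against PDGF-p53 tumours, 1, was 0 with housekeeping centring, 0 with only the 2 groups, 2 with the replicate block (Nrg3 added, adjusted p = 0.0144) and 0 without replicates 3 and 4, and leaving out 1 array gave 1 to 3. Against PDGF-p53-RBPJ tumours, 0 members became 1 with array weights and 1 with only the 2 groups (Hbegf each time), and leaving out 1 array gave 0 to 1. Erbb4 passed in both of these comparisons without p53-RBPJ replicate 2 (0.79, adjusted p = 0.0256, and 0.76, adjusted p = 0.0422), and Nrg3 against PDGF-p53 without that array (-1.42, adjusted p = 0.0455) or without PDGF-p53 replicate 1 (-1.53, adjusted p = 0.0165). Hbegf passed in PDGF-p53-RBPJ tumours against normal brain with array weights (0.63, adjusted p = 0.0305) and housekeeping centring (0.72, adjusted p = 0.0197).

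Over all genes, PDGF-p53-RBPJ against PDGF-p53 gave 4 calls, 2 with the replicate block and 2 to 7 with 1 array left out. p53-RBPJ against PDGF-p53-RBPJ gave 651, with 1198 under array weights, 395 with only the 2 groups, 164 without p53-RBPJ replicates 3 and 4, and 176 (without PDGF-p53-RBPJ replicate 3) to 806 with 1 array left out. p53-RBPJ against PDGF-p53 gave 1105, with 289 for only the 2 groups, 298 without replicates 3 and 4, and 553 (without PDGF-p53 replicate 2) to 1323 with 1 array left out. The replicate block changed no other count of calls by over 1.5 times. The numbers did not meet the bar for pairing, but replicate 3 had the highest neuron mean in all 4 groups, and the highest Egfr and the lowest Erbb3 in all 3 tumour types. The causes were not tested, except that fits with fewer arrays hold fewer degrees of freedom.

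Housekeeping centring moved the median difference of all genes against normal brain to 0.15 for PDGF-p53, 0.19 for PDGF-p53-RBPJ and 0.28 for p53-RBPJ tumours, and the share of calls that were higher to 66.4% (43.5% as reported), 71.4% (46.6%) and 75.2% (44.5%) for these. For p53-RBPJ tumours the share moved to 35.1% (19.5%) against PDGF-p53-RBPJ and to 64.5% (34.8%) against PDGF-p53 tumours. Under it Egf passed in PDGF-p53-RBPJ (0.28, adjusted p = 0.0496) and p53-RBPJ tumours (0.35, adjusted p = 0.0134).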

Other observations

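The probe set annotated to both Erbb2 and Sympk, which the tests did not use, had 5.54 ± 0.31 for PDGF-p53, 5.08 ± 0.25 for PDGF-p53-RBPJ and 5.23 ± 0.27 for p53-RBPJ tumours, against 5.79 ± 0.11 in normal brain (log2 mean ± SD, n = 4 each). Its values cannot be assigned to Erbb2 or to Sympk.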
